A study of Mus musculus with 4 samples.

Results

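The genes Slc24a2, Slc24a3, Slc24a4, Slc8a1, Slc8a2 and Slc8a3, which encode plasma-membrane calcium exchangers, were followed through single-cell RNA-seq libraries of the mouse ventromedial prefrontal cortex (vmPFC), as 6 of the 31053 genes in the count matrices. The genes were taken by name, and the family was singled out because Slc24a3 differed in opposite directions between virally barcoded and barcode-free neurons of the L2/3-Rorb and L6-Syt6 subtypes. All 6 were present in all 4 libraries. Their values in those 2 comparisons are therefore given as a description, without a test, while the levels by subtype and cell class and the comparisons within the other subtypes did not enter the choice.

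Sodium-calcium exchangers use the inward sodium gradient to move calcium ions out of the cell after electrical activity. The Slc8 genes encode the NCX exchangers, which trade sodium against calcium, and the Slc24 genes encode the NCKX exchangers, which carry potassium out together with calcium. In neurons they act beside the plasma-membrane calcium ATPases, which bind calcium more tightly but turn over more slowly, and they are found at axon terminals, dendrites and cell bodies.

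All libraries came from male C57BL/6 mice, with a labelled age of 8 weeks, in which 5 targets of the vmPFC (agranular insular cortex, dorsomedial striatum, mediodorsal thalamus, basolateral amygdala and lateral hypothalamus) had each received a retrograde AAV carrying EGFP and a target-specific barcode. The methods give this age for the injection, and the tissue was taken some weeks later. There were 3 unsorted libraries, of 1 mouse each, and 1 library was sorted for EGFP fluorescence from 3 pooled mice, so that library has no replicate of its own kind and sorting cannot be told apart from the pool of mice. Every animal carried the virus, so no library is free of it, and a neuron without a viral unique molecular identifier (UMI) may still project to a target. The 4 libraries held 24801 cell barcodes, and 54728191 to 87809114 UMIs each. Of these cells, 9368 were excitatory neurons with a deposited subtype label, 2816, 2486 and 2463 of them unsorted and 1603 sorted. The median neuron had 21343.5 to 23213 UMIs when unsorted and 31669 when sorted, and 82 cell barcode sequences occurred in more than 1 library.

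The subtype labels were checked against marker genes, since each label names a layer and a gene. All markers were highest in the labelled subtype for L2/3-Calb1 (3 of 3), L6-Npy (3 of 3) and L5-Htr2c (5 of 5), and most were for L6-Syt6 (4 of 5), L5-S100b (2 of 3) and L5-Bcl6 (2 of 3). For L2/3-Rorb only 1 of 3 was: Rorb itself was highest there, but Cux2 was highest in L2/3-Calb1 and Whrn in L6-Npy. Of these markers, only Rorb thus set L2/3-Rorb apart from every other subtype. Cux2 was listed for both L2/3 subtypes and could be highest in only 1 of them. This check does not show what the deposited label rests on.

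The 6 genes are protein coding in the GENCODE vM21 annotation of GRCm38. Slc24a3, encoding NCKX3, lies at chr2:145167754-145642166 on the plus strand (ENSMUSG00000063873), and Slc24a2, encoding NCKX2, at chr4:86983124-87230477 on the minus strand (ENSMUSG00000037996). Slc24a4 (NCKX4) lies at chr12:102128733-102267091 on the plus strand (ENSMUSG00000041771). Of the NCX genes, Slc8a1 (NCX1) lies at chr17:81373105-81738377 on the minus strand (ENSMUSG00000054640), Slc8a2 (NCX2) at chr7:16129826-16161063 on the plus strand (ENSMUSG00000030376) and Slc8a3 (NCX3) at chr12:81197915-81333180 on the minus strand (ENSMUSG00000079055). No gene of the matrices on the same strand shared exon bases with any of them. On the opposite strand, Gm11096 shared 8 exon bases with Slc8a1.

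The excitatory subtypes differed widely in Slc24a3. Counts were summed over the neurons of a subtype within a library and given as CPM, the counts of a gene per 1000000 UMIs of that sum, with the mean and range over libraries. L5-S100b neurons held 118, 130 and 135 CPM of Slc24a3 in unsorted and 168 CPM in sorted cells. L2/3-Rorb neurons followed at 75.2, 71.2, 80.1 and 85.8 CPM. Both subtypes lay above all others in every library. L6-Npy neurons averaged 21.0 CPM (16.2 to 29.0), and the remaining subtypes stayed below 10 CPM in every library: L5-Bcl6 averaged 8.24 CPM (6.81 to 9.82), L6-Syt6 averaged 7.59 CPM (6.26 to 8.46), L2/3-Calb1 averaged 7.08 CPM (5.66 to 9.98) and L5-Htr2c averaged 3.21 CPM (2.79 to 3.91, n = 3 unsorted libraries). The mean in L5-S100b was 43.0 times that in L5-Htr2c. L5-Bcl6, L6-Syt6 and L2/3-Calb1 overlapped in their library ranges, whereas every other pair of neighbours in the order did not. The subtypes had been clustered on the same transcriptomes, so these levels are given without a test.

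Slc24a2 was ordered differently from Slc24a3. L6-Npy averaged 416 CPM (330 to 632), L5-S100b 312 CPM (271 to 398) and L6-Syt6 283 CPM (243 to 393), and these neighbours overlapped. A gap separated them from L5-Htr2c at 135 CPM (119 to 152), L2/3-Calb1 at 97.1 CPM (80.2 to 134) and L5-Bcl6 at 82.4 CPM (56.2 to 131). L2/3-Rorb was lowest at 29.3 CPM (25.2 to 32.7), below every library of every other subtype. L2/3-Rorb, second in the order of Slc24a3, was thus last in that of Slc24a2, and the means of the top and bottom subtypes of Slc24a2 differed 14.2-fold.

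Slc24a4, the exchanger known from adaptation of olfactory neurons, averaged 30.6 CPM in L2/3-Calb1 (28.5 to 32.7) and 26.2 CPM in L6-Npy (18.1 to 39.9). It averaged 15.7 CPM in L5-Bcl6, 14.1 CPM in L2/3-Rorb and 9.19 CPM in L5-S100b (7.15 to 13.5). L6-Syt6 held only 0.749 CPM (0.439 to 1.34) and L5-Htr2c 0.233 CPM (0 to 0.698). Levels in these last subtypes were below those of all other subtypes in every library.

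The NCX genes varied less, with an exception for Slc8a3. Slc8a1, the exchanger best known from heart muscle, averaged between 6.15 CPM in L2/3-Rorb and 11.6 CPM in L5-Bcl6, a 1.88-fold span in which all neighbours overlapped. Slc8a2, a brain exchanger, averaged 248 CPM in L6-Npy (207 to 360) and 176 to 201 CPM in L5-S100b, L2/3-Calb1, L6-Syt6, L2/3-Rorb and L5-Bcl6, all of them overlapping with their neighbours. Only L5-Htr2c stood apart for Slc8a2, at 68.3 CPM (64.6 to 72.6). Slc8a3, an exchanger of brain and skeletal muscle, showed the opposite placing of L5-Htr2c, which was highest at 30.2 CPM (27.9 to 32.6). L6-Syt6 followed at 11.4 CPM (10.4 to 13.8), and L5-S100b, highest for Slc24a3, was lowest for Slc8a3 at 2.07 CPM (1.03 to 2.78).

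**Figure D1:**
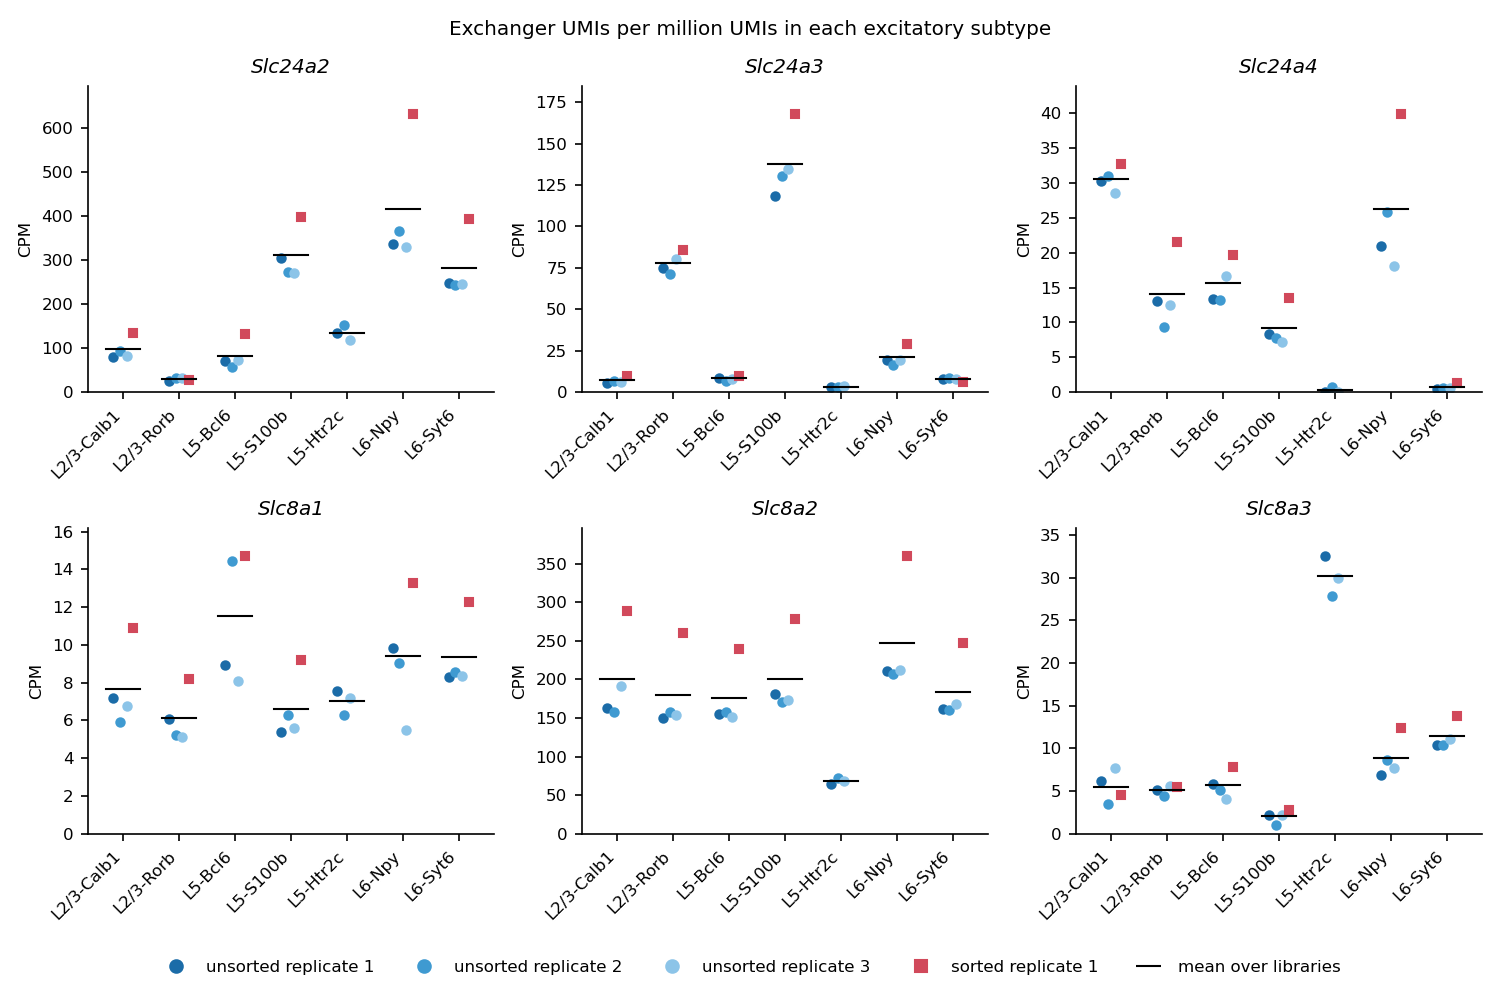
Level of each exchanger gene in CPM (y axis, linear) in the 7 excitatory subtypes (x axis); each point is 1 library and the bar marks the mean over libraries, with the sorted library as a square. Slc24a3 stands highest in L5-S100b and L2/3-Rorb, Slc24a2 is lowest in L2/3-Rorb, and L5-Htr2c is lowest for Slc8a2 and highest for Slc8a3.

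The sorted library often lay above the unsorted ones. It was above every unsorted library for 6 of 6 exchanger genes in L5-Bcl6, L5-S100b and L6-Npy, for 5 of 6 in L2/3-Calb1 and L6-Syt6, and for 4 of 6 in L2/3-Rorb. Of all 9050 genes with a mean of at least 10 CPM, the share above every unsorted library was 51.2% for L5-S100b, 51% for L2/3-Rorb, 50.1% for L2/3-Calb1, 45.7% for L5-Bcl6, 54.2% for L6-Syt6 and 53.1% for L6-Npy. The exception in L6-Syt6 was Slc24a3, which was lower in the sorted library (6.26 CPM) than in any unsorted one, as were 32.6% of all genes there. With each neuron thinned to 10000 UMIs, the sorted library was above every unsorted one for 6 of 6 genes in L5-S100b, 5 of 6 in L6-Npy and L6-Syt6, 3 of 6 in L5-Bcl6 and L2/3-Calb1, and 2 of 6 in L2/3-Rorb. The share of all genes was not counted with thinning, so these numbers have no background beside them. The thinned sorted level of Slc24a3 in L6-Syt6, 9.34 CPM, was then within the unsorted range of 8.53 to 10.4 CPM. Sorting, the pool of mice and the higher UMI total of sorted neurons cannot be told apart.

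The genes whose levels followed each exchanger most closely over the 27 sums of library and subtype were named by Pearson's r of log2(CPM + 1), as a description over points that share libraries and depth. For Slc24a3 these were Syn1 (r = 0.96), encoding the synaptic vesicle protein synapsin I, 4833422C13Rik (0.94) and Dpysl2 (0.92), encoding a microtubule-binding protein of growing axons. For Slc24a2 they were Drd1 (0.87), a dopamine receptor, Cadm4 (0.86), an adhesion molecule, and Vamp4 (0.80), a vesicle fusion protein. Slc24a4 was followed by Man1c1 (0.96), Palmd (0.95) and Tsc22d1 (0.95). Slc8a1 was followed by Fam234b (0.89), Ccdc47 (0.88) and Mapk8ip2 (0.84). Slc8a2 was followed by Ncan (0.94), a proteoglycan of the neural matrix, Camk1d (0.93), a calcium-dependent kinase, and Gabbr2 (0.93), a GABA-B receptor subunit. Slc8a3 was followed by Flywch1 (0.93), Ahi1 (0.89) and Nop56 (0.88).

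Outside the excitatory neurons, the exchangers marked different cell classes. The 3 unsorted libraries were clustered, and clusters were assigned to classes from marker genes, with excitatory neurons taken from the deposited labels, so class levels too are given without a test. The classes named below held 7765 excitatory neurons, 1365 inhibitory-like neurons, 1715 oligodendrocyte-like cells, 1639 oligodendrocyte precursor (OPC)-like cells, 109 committed OPC-like cells, 513 astrocyte-like cells, 2889 microglia-like cells, 84 macrophage-like cells, 1596 endothelial-like cells, 500 pericyte-like cells and 95 smooth muscle-like cells. A further 1180 cells in clusters without a clear class were left out.

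Slc24a2 was highest in oligodendrocyte-like cells, at 415 ± 3.58 CPM (SD, n = 3 libraries), followed by inhibitory-like neurons at 343 ± 27.0 CPM and excitatory neurons at 229.7 ± 3.29 CPM, and none of these ranges overlapped. In the precursor stages of the same lineage it stood at 6.76 ± 0.761 CPM in OPC-like cells and 74.6 ± 25.2 CPM in committed OPC-like cells. Microglia-like cells held 4.21 CPM and endothelial-like cells 5.17 CPM. Astrocyte-like cells held 60.1 ± 19.1 CPM, but 13.9 CPM when the clusters were cut more finely and 14.2 CPM when cells of fewer than 1000 genes were left out, so that level depends on the cells counted as astrocytes. Smooth muscle-like cells had no UMI of Slc24a2, which at a limit of 3 counts over the group allows up to 6.63 CPM.

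Slc24a3 was highest in inhibitory-like neurons, at 140.1 ± 7.49 CPM (132 to 147), above every library of every other class. Committed OPC-like cells held 39.2 CPM, OPC-like cells 33.5 ± 3.79 CPM, excitatory neurons as a whole 32.5 ± 1.35 CPM and astrocyte-like cells 29.8 ± 8.06 CPM, with overlapping ranges. The astrocyte-like level was 14.6 CPM (12.5 to 18.2) with the finer clusters and 14.3 CPM (12.8 to 16.8) without cells of fewer than 1000 genes, below every library of the other classes just named. Oligodendrocyte-like cells, highest for Slc24a2, held 7.08 ± 1.39 CPM of Slc24a3. In the same 3 libraries the L5-S100b excitatory subtype held 118 to 135 CPM, which overlaps the inhibitory-like range.

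Slc24a4 was at 7.21 ± 1.21 CPM in OPC-like cells, 6.71 CPM in committed OPC-like cells and 6.13 ± 0.209 CPM in excitatory neurons. The committed OPC-like level rested on 7 UMIs and was 2.49 CPM, from 3 UMIs, without cells of fewer than 1000 genes. Inhibitory-like neurons held 0.256 CPM of it. Slc8a1 was highest in microglia-like cells, at 9.62 ± 0.674 CPM, above excitatory neurons at 7.74 ± 0.417 CPM in every library. Slc8a2 was highest in excitatory neurons, at 166 ± 3.28 CPM, against 38.4 ± 5.26 CPM in inhibitory-like neurons and 3.94 CPM in oligodendrocyte-like cells. Slc8a3 was highest in OPC-like cells (24.5 ± 3.46 CPM) and inhibitory-like neurons (22.0 ± 1.08 CPM), whose ranges overlapped, and oligodendrocyte-like cells held 16.6 ± 2.13 CPM. In the same 3 libraries, single excitatory subtypes reached or exceeded the highest classes. L5-Htr2c held 27.9 to 32.6 CPM of Slc8a3 and L2/3-Calb1 held 28.5 to 31.0 CPM of Slc24a4. L5-Bcl6 held 8.11 to 14.5 CPM of Slc8a1, which overlaps the microglia-like range of 9.23 to 10.4 CPM. In microglia-like cells Slc8a3 had 0 UMIs in 2889 cells, which allows up to 0.249 CPM. Intervals and limits of this kind cover counting error only.

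**Figure D2:**
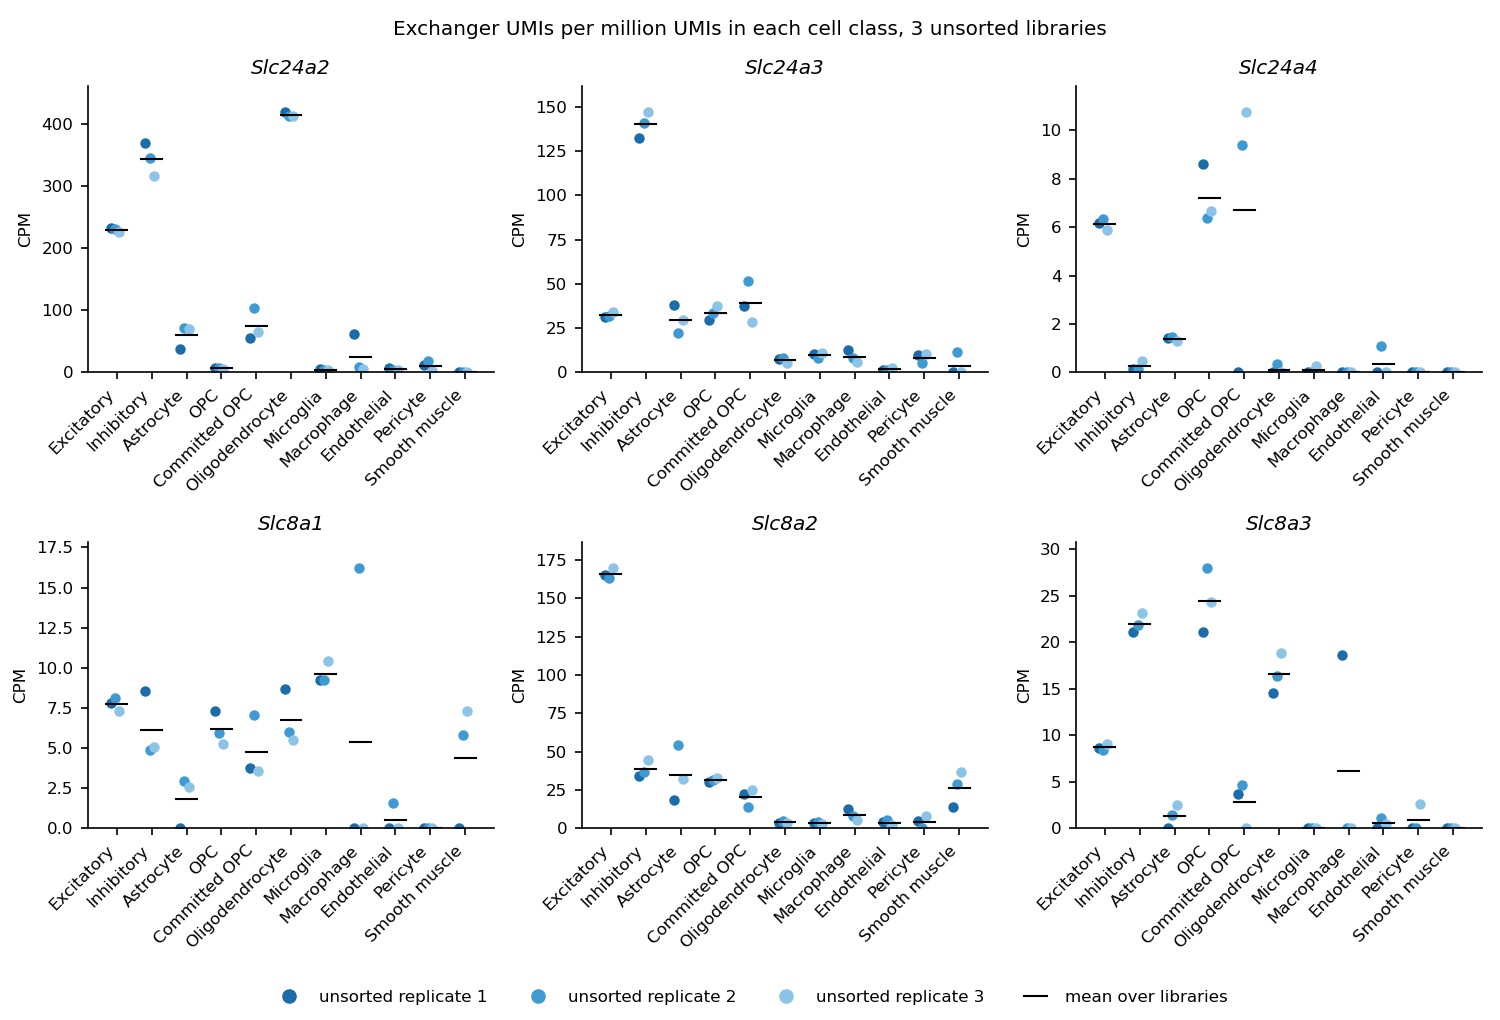
Level of each exchanger gene in CPM (y axis, linear) in the cell classes of the 3 unsorted libraries (x axis); each point is 1 library and the bar marks the mean. Slc24a2 is highest in oligodendrocyte-like cells, Slc24a3 in inhibitory-like neurons, Slc8a1 in microglia-like cells and Slc8a2 in excitatory neurons.

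Within a subtype, neurons with 5 or more UMIs of the viral barcode feature (barcode-high) were compared with neurons with none (barcode-zero), which asks whether exchanger levels differ between neurons that took up the virus at their axon terminals and those in which it was not detected. Both groups of a library came from the same animals. Counts were summed per library and group and fitted over all genes with edgeR, with library as a block. A gene was called when its Benjamini-Hochberg adjusted p was below 0.05 and its log2 fold change had a size of at least 0.5. In such sums, a change in the mix of cells within a subtype and a change in RNA per cell cannot be told apart.

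Slc24a2 was higher in barcode-high L5-S100b neurons. The barcode-high and barcode-zero sums stood at 334 and 165 CPM in the first unsorted library, 297 and 159.8 CPM in the second, 295 and 169 CPM in the third, and 446 and 259.8 CPM in the sorted library. Barcode-high neurons were higher in 4 of 4 libraries and the ranges did not overlap, a pattern found upward in 2.6% of the 11477 genes tested. The means were 343 ± 71.2 and 188 ± 47.8 CPM (SD, n = 4 libraries). The log2 fold change was 0.91 ± 0.0633 (SE), with an edgeR adjusted p of 1.78e-12. Slc24a2 was among 303 genes called in this subtype, 2.64% of those tested, 120 of them higher and 183 lower.

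The mean level of Slc24a2 in L5-S100b was higher in each bin of more barcode UMIs. Neurons with 0 barcode UMIs averaged 188 CPM, those with 1 to 4 averaged 248 CPM, those with 5 to 19 averaged 277 CPM and those with 20 or more averaged 389 CPM. When each neuron was thinned to 10000 UMIs, the same bins stood at 156, 233, 267 and 376 CPM. The bins share neurons with the comparison above and are given without a test of their own. In L6-Npy the same bins of Slc24a2 stood at 376, 459, 419 and 312 CPM and gave no such order.

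Barcode-high L5-S100b neurons also had more UMIs in all, with medians of 25553.5 against 19306.5, 27502 against 23544, 29004 against 22674 and 34389 against 28185 in the 4 libraries. Among neurons matched on total UMIs within each library, the log2 fold change of Slc24a2 was 0.59 ± 0.106 (adjusted p = 0.00162), with means of 278 CPM in barcode-high and 189 CPM in barcode-zero neurons. Over the 10 alternatives to this comparison it ranged from 0.59 to 0.95, with adjusted p from 2.65e-42 to 0.0262, and it was called in 10 of 10. Among neurons of fewer than 20000 total UMIs, barcode-high neurons held 232 CPM and barcode-zero neurons 121 CPM (higher in 3 of 3 libraries). Among those of 20000 to 30000 they held 279 and 176 CPM (higher in 4 of 4). These bins of total UMIs were chosen after the data were seen.

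Other markers moved with barcode in L5-S100b. The summed level of S100b, Etv1 and Deptor was 664 to 926 CPM in barcode-high and 337 to 540.5 CPM in barcode-zero sums, with 3 of 3 genes higher in every library. The 5 excitatory markers summed to 2533 to 2813 CPM against 2148 to 2252 CPM, and 5 of 5 were higher in every library. Of the 5 fibroblast markers, Col1a1, Col1a2, Col3a1 and Lum were at 0 in all sums, and the list, here Dcn, stood at 0.567 to 2.34 CPM against 4.84 to 14.0 CPM. The L5-Bcl6 markers summed to 65.3 to 75.5 CPM against 53.2 to 59.4 CPM and the L6-Syt6 markers to 168 to 221 CPM against 107 to 177 CPM, each higher in 4 of 4 libraries. The 6 oligodendrocyte markers, whose cells held the most Slc24a2, summed to 129.8 to 135 CPM against 123.8 to 131 CPM, higher in 4 of 4 libraries, with 1 of 6 genes higher in every library and Mog at 0. Deptor (log2 fold change 1.05), Rprm (1.00), Fezf2 (0.54) and Tbr1 (0.52) were called higher, and Calb1 (−1.01), Cux2 (−2.19), Bcl6 (−1.24), Npy (−1.23) and Oprk1 (−1.51), markers of other subtypes, were called lower. The part of these differences in the result for Slc24a2 was not tested. The 6 inhibitory markers, whose cells hold more Slc24a3 than excitatory neurons, summed to 0.276 to 10.1 CPM against 0 to 30.0 CPM, higher in 2 of 4 libraries, with Pvalb and Slc32a1 at 0.

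The other exchangers did not reach both thresholds in L5-S100b. Slc24a3 stood at 123 against 87.2, 135 against 116, 141 against 96.7 and 182 against 163 CPM. It was higher in 4 of 4 libraries, but the ranges overlapped, and its log2 fold change of 0.39 ± 0.0815 (adjusted p = 0.00176) was below the fold limit. Over its alternatives the adjusted p ranged from 2.09e-05 to 0.493. Slc24a4 was at 6.28 to 13.2 CPM in barcode-high and 9.67 to 16.2 CPM in barcode-zero sums, lower in 4 of 4 libraries, with a log2 fold change of −0.60 ± 0.251 (edgeR adjusted p = 0.189). Slc8a3 rested on 0 to 8 UMIs per barcode-zero sum, and gave −1.18 ± 0.488 (adjusted p = 0.182). Slc8a1 gave −0.33 ± 0.312 (adjusted p = 0.662) and Slc8a2 gave 0.19 ± 0.0732 (adjusted p = 0.149). With 1 library left out, Slc24a4 was −0.80 to −0.36 and Slc8a2 was 0.13 to 0.32. Slc8a3 was −1.41 to −0.68 in the 3 such fits that tested it.

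**Figure D3:**
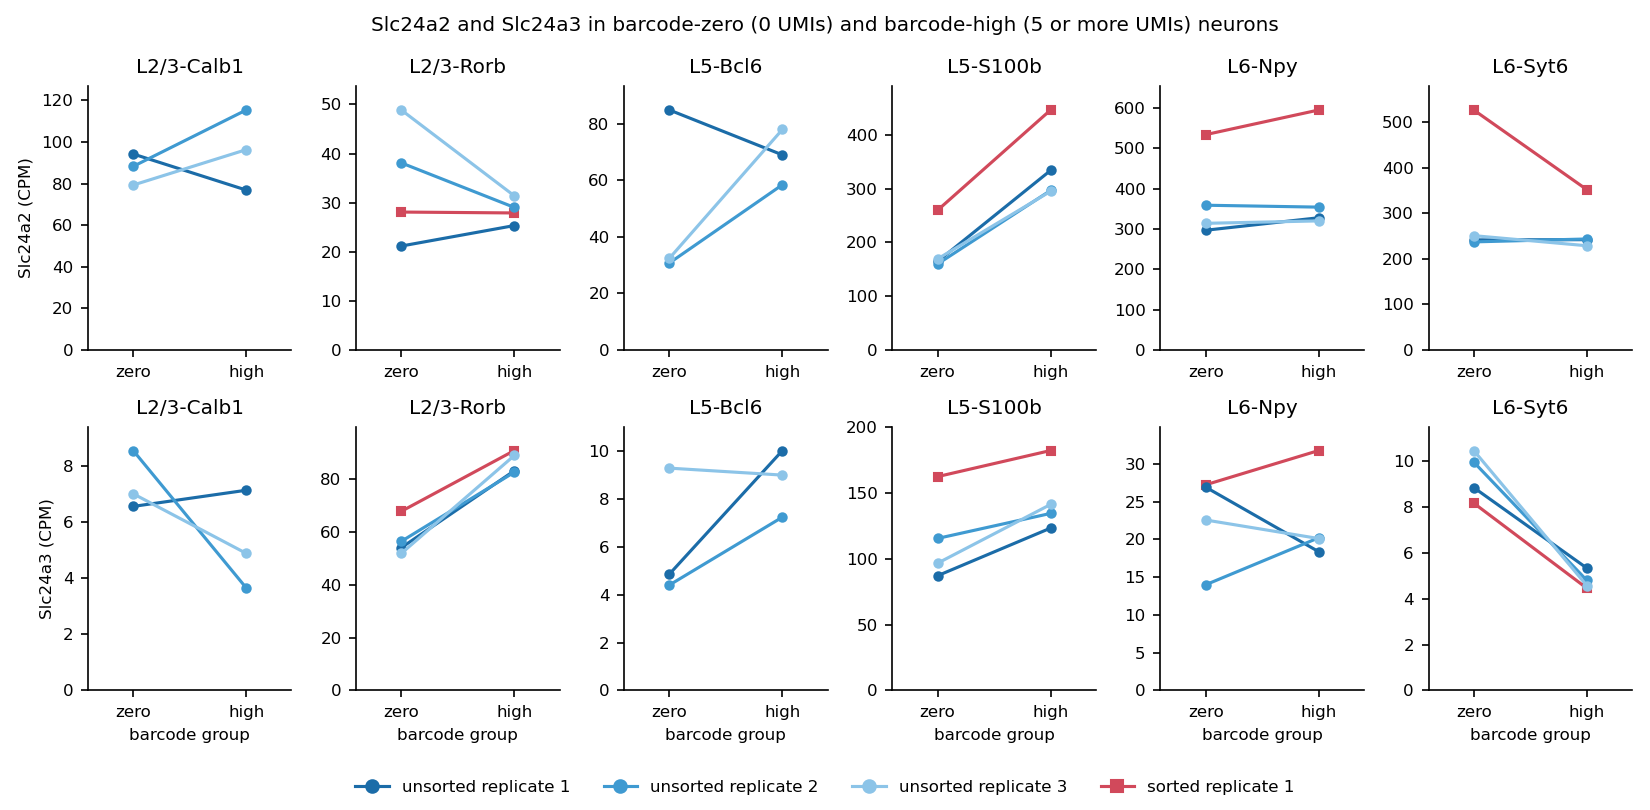
Levels of Slc24a2 (top) and Slc24a3 (bottom) in CPM (y axis, linear, from 0) in barcode-zero and barcode-high neurons (x axis) of 6 subtypes; each line joins the sums of 1 library. In L5-S100b all 4 lines of Slc24a2 rise, and Slc24a3 rises in all 4 libraries of L2/3-Rorb and falls in all 4 of L6-Syt6.

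**Figure D4:**
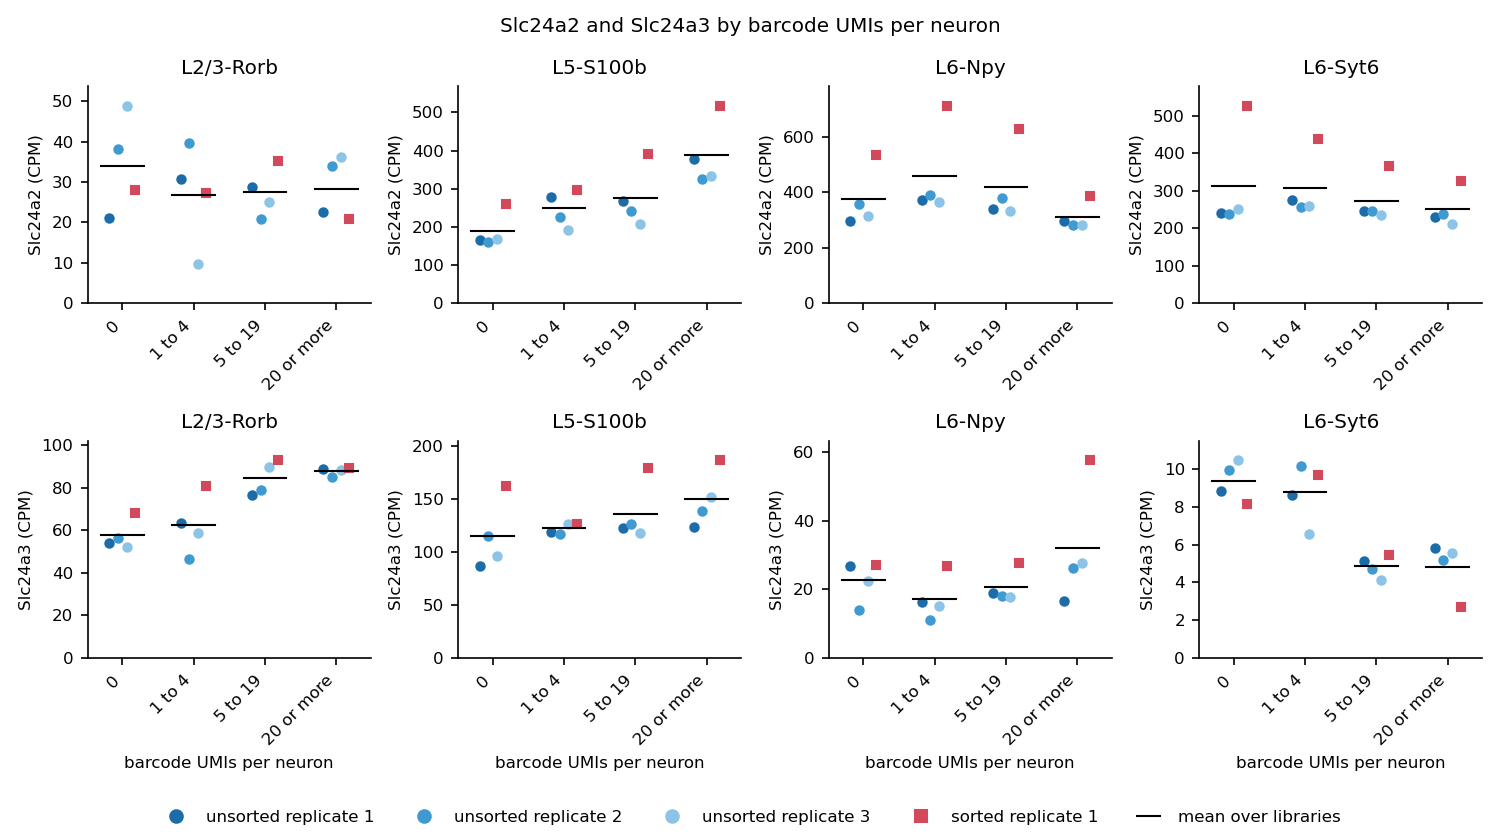
Levels of Slc24a2 and Slc24a3 in CPM (y axis, linear) by the number of barcode UMIs per neuron (x axis, bins of 0, 1 to 4, 5 to 19 and 20 or more) in 4 subtypes; points are libraries and bars their means. Slc24a2 in L5-S100b steps from 188 to 389 CPM, while Slc24a3 in L6-Syt6 steps down between 1 to 4 (8.77 CPM) and 5 to 19 barcode UMIs (4.85 CPM).

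In the other subtypes that could be tested, no exchanger was called. In L6-Npy, where 0.675% of 10365 genes were called, 0 of 6 exchangers were called by edgeR, 0 reached an unadjusted p below 0.05, and DESeq2 called 0. Slc24a2 stood at 320.2 to 595 CPM in barcode-high and 297 to 534 CPM in barcode-zero sums, a log2 fold change of 0.092 ± 0.0490 (adjusted p = 0.513). Slc24a3 gave 0.022 ± 0.174 (adjusted p = 0.982) there.

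L2/3-Calb1 and L5-Bcl6 were fitted on the 3 unsorted libraries, because the sorted library held only 9 and 5 barcode-zero neurons. In L2/3-Calb1, with 0.168% of 8340 genes called, 3 exchangers passed the filter on low counts, edgeR and DESeq2 each called 0, and 0 were below an unadjusted p of 0.05. Slc24a2 gave 0.15 ± 0.161, Slc24a4 −0.32 ± 0.283 and Slc8a2 0.21 ± 0.120 (adjusted p = 0.898, the lowest). The ranges of Slc8a2, 181 to 201 CPM with and 152 to 177 CPM without barcode, did not overlap, as for 5.25% of genes in this direction. In L5-Bcl6, with 0.126% of 8752 genes called, 3 passed, edgeR and DESeq2 each called 0, and 1 had an unadjusted p below 0.05 in edgeR, as had 607 of all genes tested. The exchanger with that p was Slc24a2, at 58.5 to 78.1 CPM against 30.8 to 84.9 CPM, with 0.48 ± 0.228 (adjusted p = 0.701). It was 1.10 without the first unsorted library, 0.32 without the second and 0.16 without the third, and was called in none of these. Whether the difference in Slc24a2 was larger in L5-S100b than in these subtypes was not tested.

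L5-Htr2c held only 2, 2, 4 and 2 barcode-high neurons per library, and the comparison could not be fitted there. With barcode-positive neurons of 1 or more UMIs instead (14, 14 and 18 neurons in the unsorted libraries), 3 exchangers were tested and edgeR called 0, against 0.0483% of 8287 genes; 0 were below an unadjusted p of 0.05 and DESeq2 called 0. Slc8a3, highest in this subtype, stood at 43.0, 21.1 and 53.2 CPM in barcode-positive and 31.3, 29.2 and 24.8 CPM in barcode-zero sums, a log2 fold change of 0.50 ± 0.325 (adjusted p = 0.940). The barcode-positive sums held 5 to 15 UMIs of Slc8a3.

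The comparison that led to the choice of the family is described next. In L2/3-Rorb, where 0.159% of 10038 genes were called, Slc24a3 stood at 83.2 against 54.1, 82.7 against 56.5, 89.0 against 51.9 and 90.9 against 67.9 CPM in barcode-high and barcode-zero neurons. All 4 libraries were higher with barcode and the ranges did not overlap, as for 1.31% of genes in this direction. The means were 86.5 ± 4.12 and 57.6 ± 7.10 CPM, and the log2 fold change was 0.60 ± 0.125. By barcode UMIs the means were 57.6 CPM at 0, 62.2 CPM at 1 to 4, 84.5 CPM at 5 to 19 and 87.8 CPM at 20 or more. With neurons thinned to 10000 UMIs the same bins stood at 60.6, 60.6, 77.2 and 82.7 CPM. The share of thinned neurons with a UMI of Slc24a3 was higher with barcode in unsorted replicates 2 and 3 (56.7 against 37.8% and 46.3 against 34.4%) and lower in unsorted replicate 1 (42.1 against 51.3%) and in the sorted library (43.0 against 53.3%, the latter from 15 neurons). Unthinned, the shares were 67.1 against 60.0%, 71.1 against 57.9%, 77.4 against 45.5% and 83.5 against 93.3%, with median totals of 20923.5 to 29905 UMIs and 19662 to 28816 UMIs, while 0.327 to 1.04% of endothelial-like cells, of a median of 2817.5 UMIs, had one. Among neurons matched on total UMIs the log2 fold change was 0.44 ± 0.162. Among neurons of fewer than 20000 total UMIs, Slc24a3 averaged 52.2 CPM with and 41.2 CPM without barcode (higher in 2 of 3 libraries), and among those of 20000 to 30000 it averaged 81.5 and 65.7 CPM (higher in 3 of 4). The summed level of S100b, Etv1 and Deptor was 145 to 187 CPM with and 73.3 to 139.9 CPM without barcode, with 2 of 3 genes higher in every library. The L2/3-Rorb markers themselves summed to 311 to 435 CPM with and 324 to 627 CPM without barcode, and the L2/3-Calb1 markers to 194 to 255 CPM and 206 to 409.6 CPM, each lower with barcode in 4 of 4 libraries. The L5-Bcl6 markers (40.6 to 51.9 against 23.4 to 43.5 CPM) and the L5-Htr2c markers (176 to 228 against 133 to 161 CPM) were higher in 4 of 4. The 5 pericyte markers summed to 3.38 to 26.3 CPM against 0 to 4.58 CPM, higher in 4 of 4 libraries with Abcc9, Kcnj8 and Pdgfrb at 0, and the 6 oligodendrocyte markers to 64.0 to 80.1 CPM against 81.9 to 92.9 CPM, lower in 4 of 4 with Mag and Mog at 0. Inhibitory markers summed to 0 to 34.2 CPM against 0 to 72.3 CPM, and Pvalb was at 0. Their part in the difference was not tested.

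In L6-Syt6, where 1.74% of 13030 genes were called, Slc24a3 was lower in barcode-high neurons in 4 of 4 libraries. It stood at 5.34 against 8.85, 4.80 against 9.96 and 4.58 against 10.5 CPM in the unsorted libraries and at 4.46 against 8.17 CPM in the sorted one. The ranges did not overlap, as for 6.09% of genes in this direction. The means were 4.80 ± 0.389 and 9.36 ± 1.04 CPM, and the log2 fold change was −0.93 ± 0.119. By barcode UMIs the means were 9.36, 8.77, 4.85 and 4.81 CPM, and 12.1, 10.1, 6.04 and 5.56 CPM with neurons thinned to 10000 UMIs. The difference thus concerned a subtype in which Slc24a3 was low, 7.59 CPM on average against 138 CPM in L5-S100b.

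Slc24a3 in L6-Syt6 also differed with the total UMIs of the neurons. The median totals in L6-Syt6 were 24582 to 38604 UMIs in barcode-high and 21684 to 30096.5 UMIs in barcode-zero neurons. Among barcode-zero neurons, Slc24a3 averaged 22.9 CPM below 20000 UMIs, 8.33 CPM from 20000 to 30000 and 4.64 CPM above 30000. Among barcode-high neurons it averaged 18.4, 9.04 and 3.36 CPM in the same bins. Neurons of fewer UMIs thus held a larger share of Slc24a3 in both groups.

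Within the lowest bin, barcode-high neurons were lower in 4 of 4 libraries. From 20000 to 30000 UMIs they were lower in the 3 unsorted libraries (4.44 against 5.38, 3.00 against 6.58 and 4.46 against 8.96 CPM) and higher in the sorted library (24.3 against 12.4 CPM, from 25 and 11 UMIs in 38 and 33 neurons). Over the unsorted libraries alone that bin gave 3.97 against 6.98 CPM, a log2 ratio of −0.81. With neurons matched on total UMIs, the means were 6.40 and 6.70 CPM and the log2 fold change was −0.31 ± 0.174. In that draw the unsorted libraries were lower (5.23 against 6.38, 4.68 against 6.43 and 4.51 against 7.51 CPM) and the sorted library was higher (11.2 against 6.48 CPM). Without the sorted library, the matched log2 fold change was −0.48 ± 0.164.

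**Figure D5:**
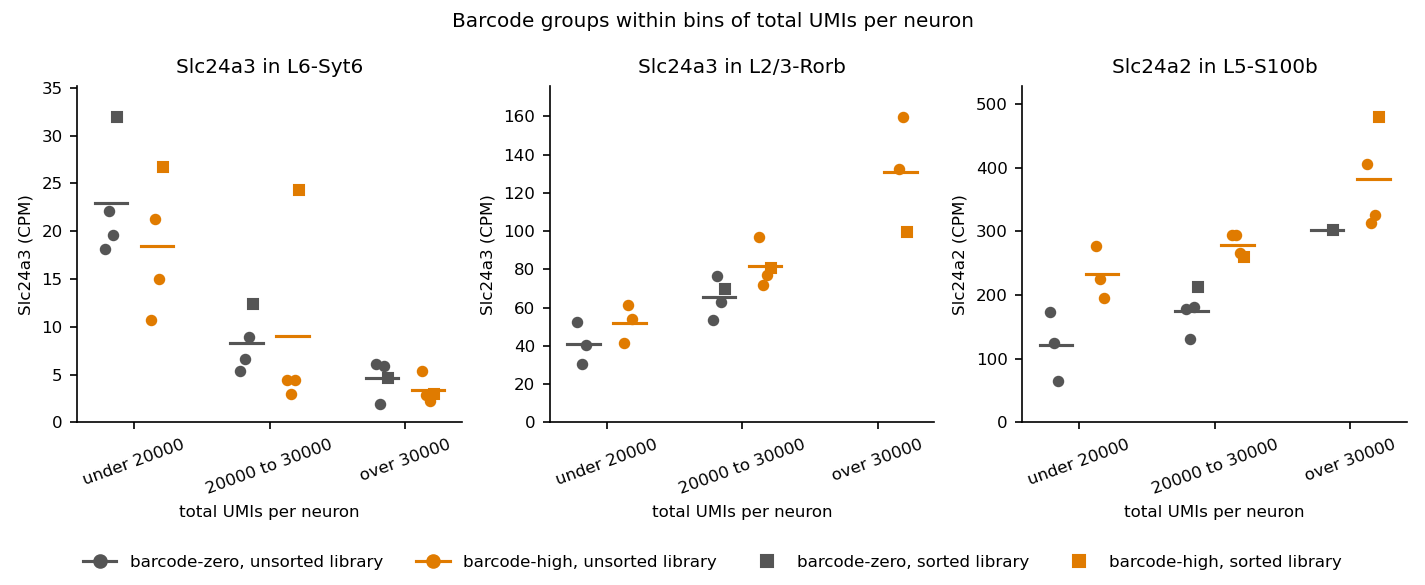
Levels in CPM (y axis, linear) of Slc24a3 in L6-Syt6 and L2/3-Rorb and of Slc24a2 in L5-S100b, in bins of total UMIs per neuron (x axis), for barcode-zero and barcode-high neurons; points are libraries with at least 10 neurons in the bin and bars are means. Slc24a3 in L6-Syt6 drops from 22.9 to 4.64 CPM with total UMIs in barcode-zero neurons, and Slc24a2 in L5-S100b is higher with barcode in both bins where both groups were measured in at least 3 libraries.

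Markers of other cells moved with barcode in L6-Syt6 as well. The 5 pericyte markers summed to 6.31 to 11.3 CPM in barcode-high and 24.1 to 35.3 CPM in barcode-zero sums; 3 of 5 were lower in every library and none was at 0 throughout. Rgs5, the leading pericyte gene, had a log2 fold change of −1.52 and was called. Inhibitory markers summed to 1.25 to 12.4 CPM against 0.743 to 15.1 CPM, higher with barcode in 3 of 4 libraries, although Sst was called lower (−0.78). The L6-Syt6 markers summed to 2240.3 to 2468 CPM against 1959.9 to 2025 CPM, and those of L5-S100b to 59.1 to 79.3 CPM against 77.6 to 109.9 CPM. Tshz2 (−1.85), Lamp5 (−1.46) and Etv1 (−0.52), markers of other excitatory subtypes, were called lower, and Rorb (0.65) and Nr4a2 (0.55) higher. The L2/3-Rorb markers summed to 14.7 to 20.4 CPM against 12.2 to 14.5 CPM and the L6-Npy markers to 116 to 138 CPM against 79.1 to 96.97 CPM, each higher with barcode in 4 of 4 libraries. Lower with barcode in every library were the L2/3-Calb1 markers (3.15 to 5.81 against 7.80 to 10.0 CPM) and the L5-Htr2c markers (93.3 to 119.9 against 98.1 to 138.5 CPM). So were the oligodendrocyte markers (30.6 to 50.4 against 30.8 to 55.7 CPM). Pericyte-like cells held 5.07 to 10.5 CPM of Slc24a3, a range that overlaps the 8.17 to 10.5 CPM of the barcode-zero neurons. The part of these lists in the difference was not tested.

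The remaining exchangers are described for the same contrasts. In L6-Syt6, Slc8a3 stood at 8.07 to 12.1 CPM with and 10.4 to 18.9 CPM without barcode, lower in 4 of 4 libraries, with a log2 fold change of −0.38 ± 0.0973. Slc8a1 was also lower in 4 of 4 libraries (−0.29 ± 0.0969), with overlapping ranges. Slc24a2 gave −0.12 ± 0.0806 and Slc8a2 0.067 ± 0.0451, and Slc24a4 did not pass the filter on low counts. In L2/3-Rorb, Slc24a2 gave −0.25 ± 0.183, Slc24a4 −0.44 ± 0.270, Slc8a1 −0.093 ± 0.413 and Slc8a2 −0.030 ± 0.0823, while Slc8a3 did not pass the filter.

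Of the other genes that clear calcium or keep the sodium gradient, 22 were examined. They were plasma-membrane and endoplasmic calcium ATPases, the further calcium ATPase Atp2c1, the mitochondrial uniporter and its partners, Letm1 and sodium-potassium ATPase subunits. The remaining exchanger genes Slc24a1, Slc24a5 and Slc8b1 were also on the list. Between 15 and 18 of the 22 were tested in each of the 6 comparisons, and edgeR and DESeq2 called 0 in each. Below an unadjusted p of 0.05 in edgeR were 4 of 17 in L2/3-Calb1, 1 of 18 in L2/3-Rorb and 1 of 15 in L5-Bcl6. There were 7 of 18 in L6-Syt6, 4 of 18 in L6-Npy and 7 of 18 in L5-S100b. Over all genes it was 470 of 8340, 690 of 10038, 607 of 8752, 3343 of 13030, 1134 of 10365 and 1972 of 11477, in the same order. In DESeq2 the list gave 0, 0, 0, 4, 1 and 5, and all genes gave 42, 132, 46, 1896, 252 and 926. The median log2 fold change of the list per comparison lay between −0.010 and 0.070, against −0.0072 to 0.00040 over all genes tested. Among neurons matched on total UMIs, Atp2b4, a plasma-membrane calcium ATPase, was called lower in L5-S100b.

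Slc24a1 and Slc8b1 were at or below 1.75 CPM in every library and subtype. Slc24a5, known from pigment cells, was counted at 108 to 219.8 CPM, but it shares 921 exon bases with Myef2 on the opposite strand, and whether its reads could belong to Myef2 cannot be told from these counts.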

How the data were processed

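Droplet libraries of prefrontal cells were sequenced with Chromium 3′ chemistry. The authors deposited raw UMI counts per gene and cell barcode from Cell Ranger 3.0.2 (mm10), 1 matrix per library, with 1 viral feature named barcode that is not split by target here, and a table of excitatory neurons with their subtype and total UMI counts; projection target calls were not analysed here. Seurat 3.1.4 is named in the submitters' processing notes. The 6 genes, the lists and the comparisons were chosen with earlier results of these data known.

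Here, counts were summed per library and subtype, barcode group or class, without the viral feature (0.0319 to 0.0384% of UMIs), in sums of at least 10 cells. Contrasts were fitted with edgeR 4.0.16 over all genes that filterByExpr kept, by its quasi-likelihood test with TMM scaling and library as a block (since both barcode groups of a library come from the same animals), in subtypes with at least 3 libraries. DESeq2 1.42.0 was an alternative, with other size factors, no filter, 1 or more barcode UMIs, neurons matched on total UMIs, no block, and each library left out. The fits were tested on simulated data. For classes, cells with 1000 to 60000 UMIs, 500 to 8000 genes and a mitochondrial share under 20% were clustered (scanpy 1.11.5, leidenalg 0.10.2) into 44 clusters, of which 31 were named from at least 3 markers. No doublet caller was run: 13 clusters without a clear class, those with markers of unrelated classes included, were left out. Text names all 6 exchangers, called genes of the calcium list (1 of which is not reported here), the 3 genes most like each exchanger, and markers that moved with one. Precision is limited by the UMIs per sum. The unsorted libraries are separate mice. With library as a block, p-values weigh the barcode difference against how far it varies between libraries, not against the spread of levels.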

Additional observations from a re-analysis of the deposited data

Results flagged for a closer look

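In 24 of 84 groups of 4 libraries, 1 library stood apart from the other 3 by Dixon's test, and in all 24 the sorted library was highest. The test marks about 1 in 20 independent groups by chance, but these groups share libraries and neurons. The share of all genes it marks was not counted. In the sorted library, 45.7 to 54.2% of all 9050 genes with a mean of at least 10 CPM were above every unsorted library. By subtype, Slc8a2 in the sorted library was at 259.6 CPM in L2/3-Rorb, 239 CPM in L5-Bcl6, 279 CPM in L5-S100b, 360.4 CPM in L6-Npy and 247 CPM in L6-Syt6. Slc24a2 was at 632 CPM in L6-Npy and 393 CPM in L6-Syt6, Slc8a1 at 12.3 CPM in L6-Syt6 and Slc24a3 at 9.98 CPM in L2/3-Calb1.

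Among barcode-high neurons the sorted library stood apart for Slc8a1 (8.88 CPM) and Slc8a2 (257 CPM) in L2/3-Rorb, for Slc8a2 (288 CPM) in L5-S100b, for Slc24a2 (595 CPM), Slc24a3 (31.8 CPM) and Slc8a2 (354 CPM) in L6-Npy, and for Slc24a2 (352 CPM), Slc8a1 (10.6 CPM) and Slc8a2 (239.8 CPM) in L6-Syt6. Among barcode-zero neurons it did so for Slc24a2 (259.8 CPM) in L5-S100b, Slc8a2 (349 CPM) in L6-Npy, and Slc24a2 (527 CPM), Slc24a4 (1.86 CPM), Slc8a1 (14.1 CPM) and Slc8a2 (251 CPM) in L6-Syt6.

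In 4 pairs of subtypes every library of one was higher with barcode and every library of the other was lower, a difference that was not tested. The rule was run on the exchangers only, so its share over all genes is not known. For Slc24a3 the log2 ratio of the mean CPM was 0.59 in L2/3-Rorb and −0.97 in L6-Syt6, a difference of 1.55 that chose the family. It was 0.33 in L5-S100b, a difference of 1.30 from L6-Syt6. For Slc8a1 it was 0.51 in L5-Bcl6 and −0.35 in L6-Syt6, a difference of 0.86. The barcode-zero sums of L5-Bcl6 held only 2, 7 and 2 UMIs of Slc8a1, and unsorted replicate 2 stood at 16.4 against 15.4 CPM. Slc8a1 did not pass the filter on low counts in that subtype. For Slc8a2 the log2 ratio was 0.21 in L2/3-Calb1 and −0.23 in L5-Bcl6, a difference of 0.44.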

How the results depend on the processing

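Of the comparisons' main values, the number of exchangers called kept its value under every alternative run: 1 in L5-S100b and 0 in L6-Npy, L2/3-Calb1 and L5-Bcl6, with no replicate block too, where Slc24a3 was at 0.60 in L2/3-Rorb and −0.99 in L6-Syt6. Slc24a3 in L2/3-Rorb moved from 0.60 to 0.44 with neurons matched on total UMIs, 0.34 among neurons under 20000 and 0.31 among those of 20000 to 30000 total UMIs, and 0.54 to 0.65 with 1 library left out. In L6-Syt6 it moved from −0.93 to −0.59 with barcode-positive neurons, −0.31 with matching, −0.48 with matching and without the sorted library, −0.32, 0.12 (reversed) and −0.47 in rising bins of total UMIs, and −1.03 to −0.84 with 1 library left out. The reversed bin was −0.81 without the sorted library. The bins, and matching without the sorted library, were added after the data were seen.

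Uncalled values changed sign in L5-S100b for Slc8a1 (0.013 without unsorted replicate 1, −0.45 without unsorted replicate 3). In L6-Npy, Slc24a3 was −0.12 with barcode-positive and −0.13 with matched neurons, and −0.10 to 0.19 with 1 library left out, −0.091 of these without the sorted library. Leaving out 1 library there gave −0.30 to 0.097 for Slc24a4, −0.41 to 0.11 for Slc8a1 and −0.53 to 0.065 for Slc8a3, the upper values without unsorted replicate 2, 2 and the sorted library. In L2/3-Calb1, Slc24a2 was −0.068 with barcode-positive neurons and Slc24a4 was −0.79 to 0.042 with 1 library left out, and in L5-Bcl6 it was −0.084 to 0.86, both turning without unsorted replicate 1. The causes were not tested.

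The number of genes called depended on the alternative. L6-Syt6 had 227 in the main comparison, 33 with barcode-positive neurons, 105 with matching, 74 with no block and 40 to 310 with 1 library left out. L5-S100b had 303, against 142 in DESeq2, 195 with barcode-positive, 168 with matched neurons, 62 with no block and 177 without the second unsorted library. L6-Npy had 70, against 11 in DESeq2, 23 with barcode-positive, 15 with matched neurons, 0 with no block and 30 without the third unsorted library. L2/3-Rorb had 16, against 0 in DESeq2, 7, 5 and 0, and 2 to 27 with 1 library left out. L2/3-Calb1 had 14, against 2 in DESeq2, 25 with no filter, 6 with barcode-positive neurons and 10 to 26. L5-Bcl6 had 11, against 0 in DESeq2, 19 with no filter, 1 with barcode-positive, 0 with matched neurons, 2 with no block and 0 to 31. L5-Htr2c gave only the comparison of barcode-positive neurons.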
